A study of Homo sapiens with 52 samples.

Results

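The genes of MHC class I antigen presentation were followed in senescing WI-38 cells by mRNA sequencing. The 9 members, taken by symbol from the 59408 genes of the tables, were the class I heavy chains HLA-B, HLA-C, HLA-E and HLA-F, the light chain B2M, the peptide transporter subunits TAP1 and TAP2, the loading factor TAPBP (tapasin) and the transcriptional regulator NLRC5. WI-38 is a line of normal human fibroblasts from embryonic lung, so every group was 1 line. Cells were exposed for 24 h to 0.0090% SDS, which damages the plasma membrane (PMD-Sen), to 75 mM KCl, which lets Ca2+ enter (Ca2+-Sen), or to 250 nM doxorubicin (DXR), which damages DNA (DDR-Sen). They were collected on 8 days after the agent was washed away, from day 0 over days 1, 2, 3, 4, 6 and 8 to day 16. Replicatively senescent cells (RS, about population doubling 52) and untreated young cells completed the 26 groups, with 2 libraries in each and 52 in all. No group carried a transgene or a deletion.

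Class I molecules show peptides from inside the cell to CD8+ T cells and are read by natural killer cells. Proteins are cut by the proteasome, the peptides are carried into the endoplasmic reticulum by the TAP1/TAP2 transporter, and TAPBP bridges the transporter to empty class I molecules until a peptide is bound. The heavy chain reaches the cell surface only together with B2M. NLRC5 is a nuclear protein that activates class I, B2M and TAP1 promoters together with RFX, CREB/ATF and NF-Y factors. Interferons raise the expression of most of these genes, and senescent fibroblasts are known to be targets of immune cells.

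The promoters of 4 members are shown because the members share control elements there and because HLA-B and HLA-C are near copies of each other. Each is a RefSeq window on GRCh38.p14 from 250 bases before to 50 bases after the transcription start, written 5′ to 3′ on the strand of the gene. Capitals mark matches, on either strand, to GAAANNGAA (core of the interferon-stimulated response element), TTCNNNGAA (gamma-activated site), GGGNNTTCC (NF-κB), TGACG (X2 or CRE core) and CCAAT (Y box). Adjacent matches to GAAANNGAA overlap in B2M and TAP1. The windows lie at chr15:44711267-44711566 on the plus strand (B2M) and, on the minus strand, at chr6:31357130-31357429 (HLA-B), chr6:31272043-31272342 (HLA-C) and chr6:32853655-32853954 (TAP1).
B2M: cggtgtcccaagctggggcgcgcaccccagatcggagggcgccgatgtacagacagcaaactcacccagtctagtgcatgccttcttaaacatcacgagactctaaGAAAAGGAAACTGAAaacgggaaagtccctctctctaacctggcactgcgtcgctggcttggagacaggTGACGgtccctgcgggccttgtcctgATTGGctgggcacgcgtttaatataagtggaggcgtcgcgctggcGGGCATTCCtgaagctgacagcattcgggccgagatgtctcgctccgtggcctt
HLA-B: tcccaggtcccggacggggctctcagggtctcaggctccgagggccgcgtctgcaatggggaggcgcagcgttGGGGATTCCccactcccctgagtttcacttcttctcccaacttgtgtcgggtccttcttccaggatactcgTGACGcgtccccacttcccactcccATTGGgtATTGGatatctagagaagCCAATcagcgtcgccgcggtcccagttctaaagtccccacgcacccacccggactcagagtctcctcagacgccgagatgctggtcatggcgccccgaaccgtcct
HLA-C: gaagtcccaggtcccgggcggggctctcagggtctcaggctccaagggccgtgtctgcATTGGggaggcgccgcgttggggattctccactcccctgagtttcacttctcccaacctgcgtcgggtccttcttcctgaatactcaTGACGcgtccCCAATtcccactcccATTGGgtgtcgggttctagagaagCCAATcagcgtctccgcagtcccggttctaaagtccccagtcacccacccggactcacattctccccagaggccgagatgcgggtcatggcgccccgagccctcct
TAP1: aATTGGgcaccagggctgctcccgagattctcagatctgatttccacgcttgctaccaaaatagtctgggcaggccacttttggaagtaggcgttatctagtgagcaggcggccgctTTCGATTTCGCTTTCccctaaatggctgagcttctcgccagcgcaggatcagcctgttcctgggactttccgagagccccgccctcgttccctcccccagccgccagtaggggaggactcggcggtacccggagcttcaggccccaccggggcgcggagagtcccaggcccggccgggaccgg

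RefSeq gave 8 such windows for 7 members, with 2 for TAP1, and none was used here for HLA-E and NLRC5. GAAANNGAA was found in 5 of the 8 windows and in 8.11% of all 35116 promoters of the same length. CCAAT was found in 5 windows (34.6% of all promoters), TGACG in 4 (24.6%), GGGNNTTCC in 3 (6.58%) and TTCNNNGAA in 1 (7.66%). The B2M window held 4 of the 5 motifs, with the GAAANNGAA matches beginning 144 and 138 bases before the start. These matches are a description of sequence and not evidence of binding.

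Values are given as reads or as normalized counts. A normalized count is the number of reads of a gene in a library divided by a size factor, with the untreated libraries at a scale of about 1. Between 12.4 M and 67.6 M reads per library were recovered (median 34.6 M), and the untreated libraries, at 12.4 M and 15.2 M, were the shallowest. Within a group the libraries are called the smaller and the larger by their total, because they could not be tied to the replicate numbers. The fibroblast markers were abundant (COL1A1 table means of 173238 to 332793 normalized counts), though the 4 with counts per library ranged in sum from 10437 on SDS day 0 to 68217 in RS, and the white blood cell marker PTPRC had at most 42 reads in any library. MKI67, a marker of cycling cells, was at a mean of 2960 normalized counts in untreated cells, 64.9 in RS, 334 on SDS day 16 and 82.5 on DXR day 16, and each was called. On KCl day 16, MKI67 was at 1396 and was not called (adjusted p = 0.11, limma). CDKN1A, the p21 inhibitor of cell-cycle kinases, rose in all 7 groups examined for it, from 14665 to between 18652 (KCl day 0) and 62371 (DXR day 0).

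The members differed in how well they were counted. NLRC5 on chromosome 16 (GENCODE v29, GRCh38, 16:56989485-57083531) and B2M on chromosome 15 (15:44711487-44718877) were well counted, with 140 to 2182 and 2763 to 13646 reads per library. The 7 members on chromosome 6 had fewer on average. HLA-C had 47 to 518 reads per library, and the rest had 11.5 reads or less in the median library. Per kilobase of annotated exon, the mean level in untreated cells was 510 normalized counts for B2M, 29.1 for NLRC5, 24.1 for HLA-C, 3.04 for HLA-E, 1.94 for HLA-B, 0.299 for TAP2, 0.109 for TAPBP, 0.0943 for TAP1 and 0 for HLA-F. B2M thus stood well above HLA-C, the most counted heavy chain.

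Low counts were shared by most of the chromosomal neighbourhood. Of the 136 protein-coding genes from HLA-F to TAPBP on chromosome 6, a set defined after the values were seen, 9.56% reached a mean of 10 normalized counts over the 26 groups, and the median gene was at 0.0541. Elsewhere on the chromosome 62.2% of 850 genes reached it with a median of 101, and on other chromosomes 63.3% of 17896 genes did with a median of 107. Housekeeping genes of the interval were low as well. TUBB, a β-tubulin, had between 3 and 36 reads per library, and CSNK2B, a casein kinase subunit, had 7 reads at most. RPS18, a ribosomal protein gene, had 0 reads in 19 libraries and up to 7980 in another.

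**Figure D1:**
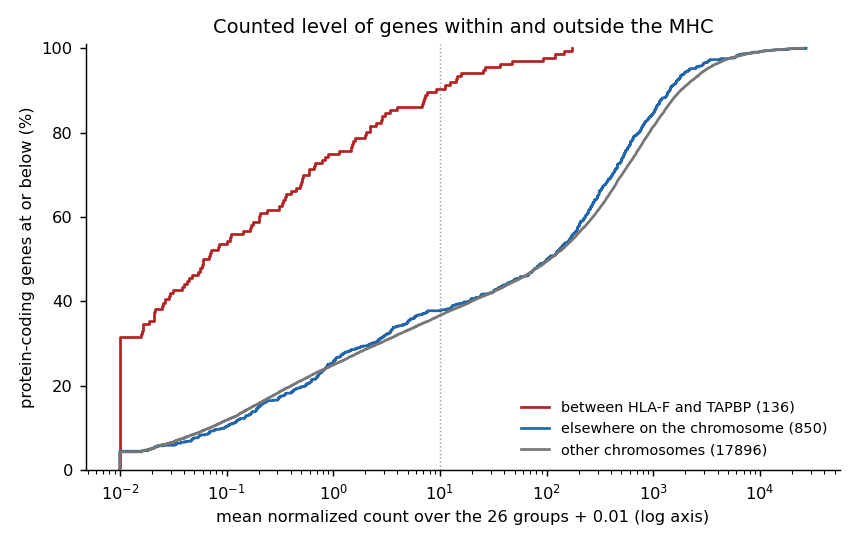
Share of protein-coding genes (vertical axis, cumulative percent) at or below a mean normalized count over the 26 groups (horizontal axis, log scale, 0.01 added), for genes from HLA-F to TAPBP (red), elsewhere on chromosome 6 (blue) and on other chromosomes (grey). The dotted line marks the mean of 10 normalized counts needed for testing: 9.56% of the 136 genes of the interval lie at or above it, against 62.2% and 63.3% of the genes elsewhere.

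Counts in this interval also differed between the 2 libraries of a group. Among gene and group pairs with at least 50 reads in a library, the libraries were at least 10-fold apart in 58 of 174 pairs within the interval (33.3%). Over all genes this was so in 0.221% of 313601 pairs. The low counts of the 7 chromosome 6 members can therefore not be read as low expression, and differences between groups in them were taken as described values. HLA-C itself was 10-fold apart in 0 of its 26 groups, and its libraries were at most 4.56-fold apart. The cause of the low counts was not tested.

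The comparisons with untreated cells asked how each type of senescence changed the members over time. Testing was limited to genes that averaged 10 normalized counts or more across the groups. This held for 4 members (NLRC5, B2M, HLA-C and HLA-B) and for 14124 genes in all. HLA-E, HLA-F, TAP1, TAP2 and TAPBP were not tested. The test was limma on log2(normalized count + 1), so that differences of low genes are understated, and a call needed an adjusted p under 0.05. All 25 comparisons share the 2 untreated libraries and are not independent of each other.

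After SDS, 2 of the 4 tested members were called on day 0 and 1 each on days 1, 2 and 16, while 0 were called on days 3, 4, 6 and 8. Of all tested genes, 59.2% were called on SDS day 0, 33.1% on day 1, 22.7% on day 2, 23.8% on day 3, 26.8% on day 4, 34.1% on day 6, 28.6% on day 8 and 47.1% on day 16. After KCl, 1 member was called on day 0 and 1 on day 8, and 0 on the other days. The corresponding share of all tested genes was 62.3% on KCl day 0, 18.8% on day 1, 6.44% on day 2, 17.6% on day 3, 22.7% on day 4, 29.8% on day 6, 46.3% on day 8 and 18.5% on day 16. After DXR, 1 member was called on each of days 2, 3, 6 and 8, and 0 on days 0, 1, 4 and 16. Among all tested genes, 42.9% were called on DXR day 0, 30% on day 1, 21.4% on day 2, 23.7% on day 3, 27.4% on day 4, 39.4% on day 6, 40.0% on day 8 and 50% on day 16. In RS, 1 member was called, beside 50.8% of all tested genes. Altogether 4 calls were higher and 8 lower, all of them NLRC5 or B2M, and with 4 members tested these counts are not a result about the members as a group.

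HLA-B (6:31269491-31357188, minus strand) showed this most plainly. It had 8.00 reads in the median library and under 10 in 34 of 52 libraries. One RS library had 872 reads and the other had 8. On KCl day 4 the libraries had 287 and 6 reads, on DXR day 1 they had 150 and 5, and on DXR day 2 they had 60 and 8. In each of these groups a single library held nearly all the reads, and HLA-B passed the filter for testing only through them. The log2 difference from untreated cells in RS was 2.29 and, without the library of 872 reads, -1.03. Without the other RS library it was 5.60, which rests on the library of 872 reads alone. None of its 25 differences was called (-2.17 to 2.29, lowest adjusted p = 0.15, limma), 0 had an unadjusted p under 0.05, and limma's voom weights called 0. Because single libraries let it pass the filter, these tests are not a result about HLA-B. In the annotation HLA-C (6:31268749-31272130) overlaps the span of HLA-B in part, on the same strand, and the genes are near copies, so how reads were divided between them is uncertain.

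HLA-C was counted in every library, from 47 to 518 reads (median 142). Untreated libraries had 47 and 76 reads, or 51.9 and 68.9 normalized counts. The highest group mean was 153 normalized counts on KCl day 3, where the libraries stood at 251 and 55.1, and the lowest was 47.6 on SDS day 2 (55.1 and 40.1). Groups with both libraries above both untreated libraries were found on 3 of 8 SDS days, 4 of 8 KCl days and 5 of 8 DXR days and in RS, among them KCl day 8 (135 and 155) and DXR day 16 (135 and 154). All of these reuse the same 2 untreated libraries, and the share of all genes lying so was not determined. The tally is therefore not a result about HLA-C. The fitted log2 differences ranged from -0.34 to 1.26 and none of the 25 was called (lowest adjusted p = 0.07, limma). Of these, 2 had an unadjusted p under 0.05, and voom weights called 0. With only the 2 groups compared in the fit, HLA-C was followed on days 0 and 16 and in RS, and SDS day 0 (1.03) and DXR day 16 (1.26) were called. Its other days were not followed one by one in that setting. When the groups were ordered by level, all 25 neighbouring pairs overlapped.

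HLA-E, the heavy chain that presents leader peptides of other class I molecules to natural killer cells, had 4 to 31 reads per library and a highest group mean of 12.7 normalized counts (DXR day 8). Both untreated libraries had 9 reads. HLA-F had 1 read in all 52 libraries together. TAPBP had 0 to 19 reads, with 1 read in the untreated libraries together, and its highest group mean was 7.35 normalized counts (DXR day 16, 11.2 and 3.51). HLA-E lay with both libraries below both untreated libraries on 7 of 8 SDS days, 4 of 8 KCl days and 4 of 8 DXR days. TAPBP lay above both on 6 of 8 SDS days, 7 of 8 KCl days, 6 of 8 DXR days and in RS. These tallies rest on the few untreated reads, and none of the 3 genes was tested. The share of all genes lying so was not determined.

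TAP1 had no read in 33 of 52 libraries. It had 129 reads in the smaller library of KCl day 0 and 2 in the larger, 125 and 0 on KCl day 3, 305 and 1 on KCl day 16, and 199 and 0 on DXR day 1. No other library had more than 2 reads. TAP2, the other transporter subunit, had 92 reads in the larger library of KCl day 3 and 2 in the smaller, and reached 11 reads at most elsewhere. The high TAP1 and TAP2 libraries of KCl day 3 were thus not the same library.

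**Figure D2:**
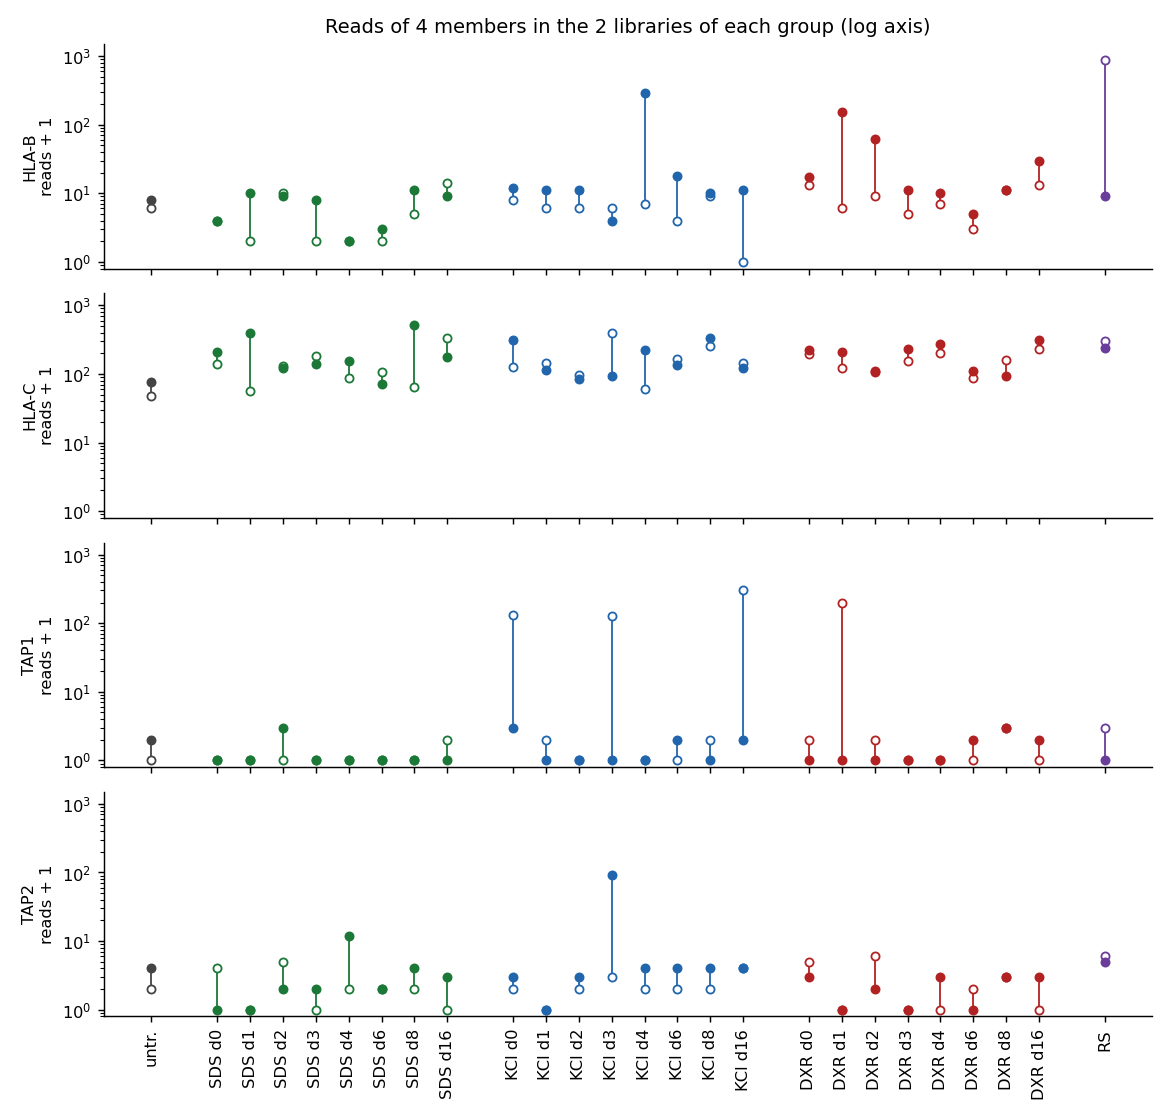
Reads plus 1 (vertical axes, log scale) of HLA-B, HLA-C, TAP1 and TAP2 in the 2 libraries of each group (horizontal axis, day after the wash for SDS, KCl and DXR), filled for the larger and open for the smaller library and joined by a line. The long lines mark the groups in which 1 library held nearly all the reads, such as 872 against 8 HLA-B reads in RS and 305 against 1 TAP1 reads on KCl day 16.

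NLRC5 moved in opposite directions right after SDS and KCl. In untreated cells its libraries stood at 358 and 362 normalized counts. On SDS day 0 they stood at 107 and 138 and on KCl day 0 at 649 and 682, whereas on DXR day 0 they stood at 368 and 366. The groups of SDS and KCl did not overlap with the untreated libraries or with each other. The share of all genes without such overlap was not determined. NLRC5 fell by 1.56 on the log2 scale on SDS day 0 (SE 0.11, 2.95-fold lower, adjusted p = 4.42e-13, limma) and rose by 0.88 on KCl day 0 (SE 0.11, 1.85-fold higher, adjusted p = 5.76e-08, limma). On DXR day 0 the difference was 0.03 (SE 0.11). The calls on SDS day 0 and KCl day 0 held under all 11 alternatives tried. In a bulk sample, fewer cells expressing a gene and less of its RNA per cell cannot be told apart.

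Endothelial markers were also higher on KCl day 0, where their summed level was 129 normalized counts against 27.7 in untreated cells and 19.5 to 64.6 in the remaining groups. This came mostly from PECAM1 (79.1 against 1.66) and VWF (48.4 against 25.5). CDH5, the cadherin that defines endothelium, had at most 3 reads in any library and 0 in 38. Epithelial markers were highest on KCl day 0 as well, at a sum of 2799 against 1425 in untreated cells and at most 2255 in the remaining groups, while EPCAM had at most 31 reads in any library. On SDS day 0, where NLRC5 was lowest, the fibroblast markers with counts per library (COL3A1, THY1, PDGFRB and LUM) were also at their lowest, at a sum of 10437 against 38623 in untreated cells. The part of these markers in the NLRC5 results was not tested.

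From day 1 on, NLRC5 was near its untreated level after SDS. The libraries stood at 404 and 429 normalized counts on day 1, 316 and 336 on day 2, 303 and 294 on day 3, 308 and 322 on day 4, 343 and 310 on day 6, 308 and 362 on day 8 and 367 and 421 on day 16. After the low value of day 0, both day 1 libraries thus lay above both untreated ones, yet the difference of 0.21 (SE 0.11) was not called (adjusted p = 0.16, limma). None of the later SDS days was called.

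After KCl, NLRC5 returned to 336 and 328 normalized counts on day 1. It stood at 347 and 365 on day 2, 299 and 324 on day 3, 284 and 336 on day 4, 312 and 331 on day 6, 360 and 398 on day 8 and 397 and 403 on day 16. The day 0 value was therefore the only KCl day called, and the highest log2 difference among the later days was 0.15 (SE 0.11, day 16).

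After DXR, NLRC5 was lower from day 2 to day 8. The libraries stood at 320 and 320 normalized counts on day 1, 251 and 276 on day 2, 222 and 272 on day 3, 297 and 294 on day 4, 312 and 277 on day 6, 315 and 265 on day 8 and 330 and 372 on day 16. Both libraries were below both untreated ones on 6 of 8 DXR days, a tally for which the share of all genes was not determined. The log2 difference was -0.45 on day 2, -0.55 on day 3, -0.28 on day 4, -0.29 on day 6 and -0.32 on day 8 (SE 0.11 each), and days 2, 3, 6 and 8 were called (adjusted p = 0.0035, 4.82e-04, 0.041 and 0.026, limma). Day 4 was not called (adjusted p = 0.06, limma). Only day 3 held under all 11 alternatives. The call of day 2 was lost without its smaller library (-0.38). The calls of days 6 and 8 were lost without the larger library of their own day (-0.21 and -0.19), without the smaller untreated library (-0.30 and -0.33) and without the larger untreated library (-0.28 and -0.31). In RS the NLRC5 libraries stood at 350 and 295, and the difference of -0.16 (SE 0.11) was not called.

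B2M, the common light chain, changed by smaller amounts and in a different order. Its untreated libraries stood at 3050 and 3145 normalized counts. It was highest on KCl day 8 (4376 and 4515), in RS (4216 and 4089) and on SDS day 16 (4250 and 3985), with no overlap with untreated cells in any of these. The share of all genes without overlap in these groups was not determined. The log2 difference was 0.52 on KCl day 8 (1.44-fold, adjusted p = 3.24e-04), 0.42 in RS (1.34-fold, adjusted p = 0.0022) and 0.41 on SDS day 16 (1.33-fold, adjusted p = 0.0032), each with SE 0.11 from limma. These 3 calls held under the 11 alternatives of scaling, pseudocount, filter, model and libraries, but RS and SDS day 16 fall short where a log2 difference of at least 0.5 is required. DXR day 16 stood at 3650 and 3754, above both untreated libraries, and was not called (0.26, adjusted p = 0.056, limma). It was called with scaling to library totals (0.29), with the median of ratios over all libraries (0.27) and with only the 2 groups compared in the fit (0.26).

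The 3 groups in which B2M was called higher, and DXR day 16, had the highest white blood cell marker sums. The 9 markers summed to 153 normalized counts on KCl day 8, 152 in RS, 150 on DXR day 16 and 149 on SDS day 16, against 18 in untreated cells and at most 82.1 in the remaining groups. The sum of DXR day 16 was not split by marker here. In the other 3 groups almost all of it was CD14, a receptor for bacterial lipopolysaccharide. CD14 was at 149 on KCl day 8, 147 in RS and 141 on SDS day 16, against 16.0 in untreated cells. PTPRC, the pan-leukocyte marker, had 5 reads at most in a library of these 3 groups and of untreated cells. The 4 fibroblast markers with counts per library were also highest in these groups, at a sum of 68217 in RS, 63139 on KCl day 8, 56253 on DXR day 16 and 56179 on SDS day 16 against 38623 in untreated cells. KCl day 6, with a B2M mean of 3738 beside 3702 on DXR day 16, had lower sums. These were 33.4 for the white blood cell markers and 39119 for the fibroblast markers. The part of these markers in the B2M result was not tested.

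In the early SDS course B2M lay below untreated cells. The libraries stood at 2552 and 2541 normalized counts on day 0, 2520 and 2469 on day 1, 2507 and 2456 on day 2, 2370 and 2721 on day 3 and 2451 and 2726 on day 4, all below both untreated libraries. How many of all genes lay so was not determined. By day 6 (3265 and 2706) and day 8 (2736 and 3367) the libraries of a day lay on both sides of the untreated ones. B2M fell by 0.28 on day 0, 0.31 on day 1 and 0.32 on day 2 on the log2 scale (SE 0.11 each, adjusted p = 0.03, 0.031 and 0.038, limma). Days 3 and 4 were at -0.29 and -0.26 and were not called (adjusted p = 0.061 and 0.083, limma). Each of these 3 calls was lost when any 1 of its 4 libraries was left out, although the difference stayed between -0.34 and -0.26. The sum of the 4 fibroblast markers was low over the same days, at 10437 on SDS day 0, 14709 on day 1, 20493 on day 2, 28432 on day 3 and 35891 on day 4 against 38623 in untreated cells, and stood at 36932 on day 6 and 40052 on day 8. Its part in the B2M result was not tested.

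After KCl, B2M stood at 3706 and 3343 normalized counts on day 0, 3176 and 3040 on day 1, 3027 and 2899 on day 2, 3061 and 2873 on day 3 and 3146 and 2932 on day 4. Day 6 was split, with 2977 in one library and 4499 in the other, and was not called (0.24, adjusted p = 0.10, limma). Day 16 was back at 3099 and 3079, so that the high level of day 8 was not found again at the last time point. After DXR the libraries stood at 3241 and 3379 on day 0, 3001 and 2938 on day 2, 2813 and 3021 on day 3, 2977 and 2734 on day 4, 2965 and 2978 on day 6 and 3215 and 3340 on day 8. On DXR day 1 only the group mean of 3267 could be recovered, and it entered the fit as 1 value. No DXR day was called for B2M in the main test, with 1 of the 8 at an unadjusted p under 0.05 and 0 called with voom weights, while day 16 was called under the 3 alternatives given above.

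**Figure D3:**
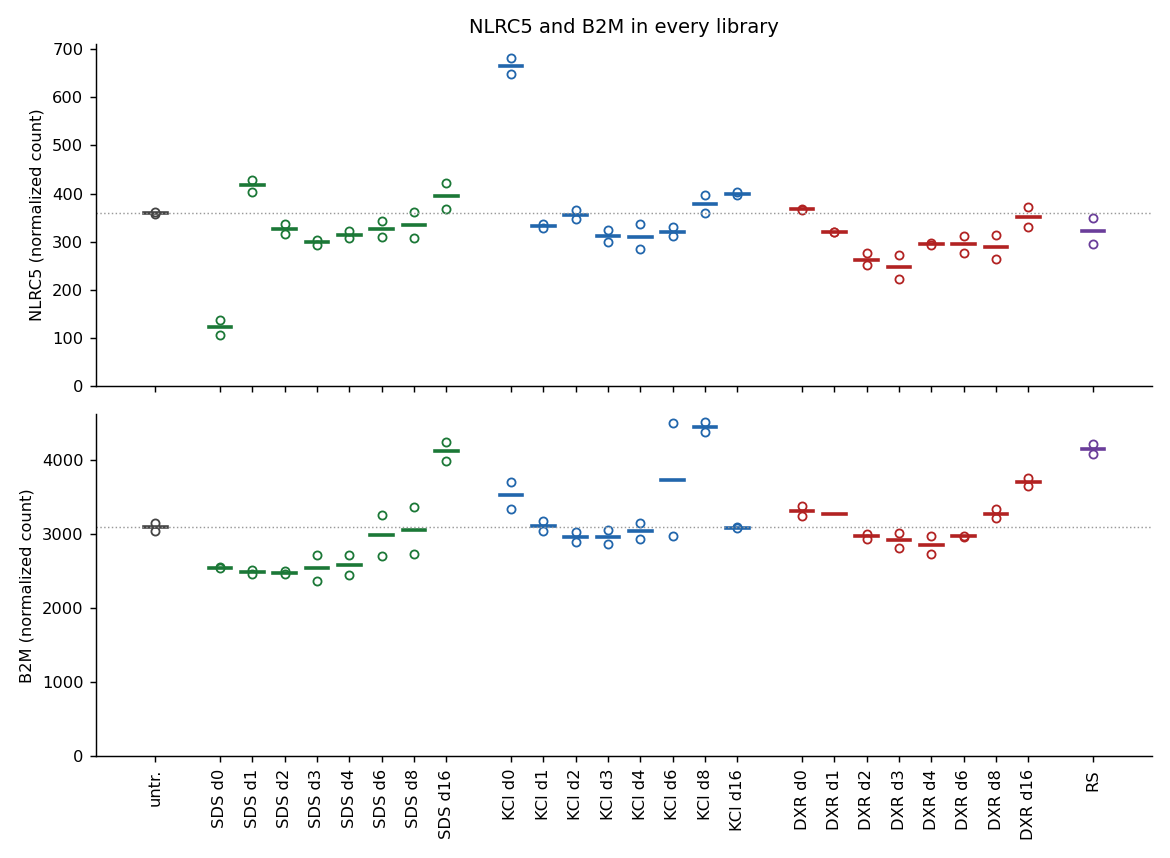
Normalized counts (vertical axes, from 0) of NLRC5 (top) and B2M (bottom) in each library (circles) and the group mean (bars) for untreated cells, the days after SDS, KCl and DXR, and RS. The dotted line is the untreated mean, 360 for NLRC5 and 3098 for B2M; NLRC5 lies at 122 on SDS day 0 and 666 on KCl day 0, and B2M on DXR day 1 has only a mean.

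Ordered by group mean, NLRC5 ran from 122 (SDS day 0) over 247 (DXR day 3) to 417 (SDS day 1) and 666 (KCl day 0). The libraries of neighbouring groups overlapped in 21 of 25 steps. They did not overlap between SDS day 0 and DXR day 3, untreated cells and DXR day 0, KCl day 16 and SDS day 1, and SDS day 1 and KCl day 0. For B2M the means ran from 2482 (SDS day 2) to 4446 (KCl day 8), 21 of 25 steps overlapped and 2 could not be judged because of DXR day 1. The B2M steps without overlap were from SDS day 4 to DXR day 4 and from RS to KCl day 8. The middle of both orders was thus not resolved by 2 libraries a group.

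**Figure D4:**
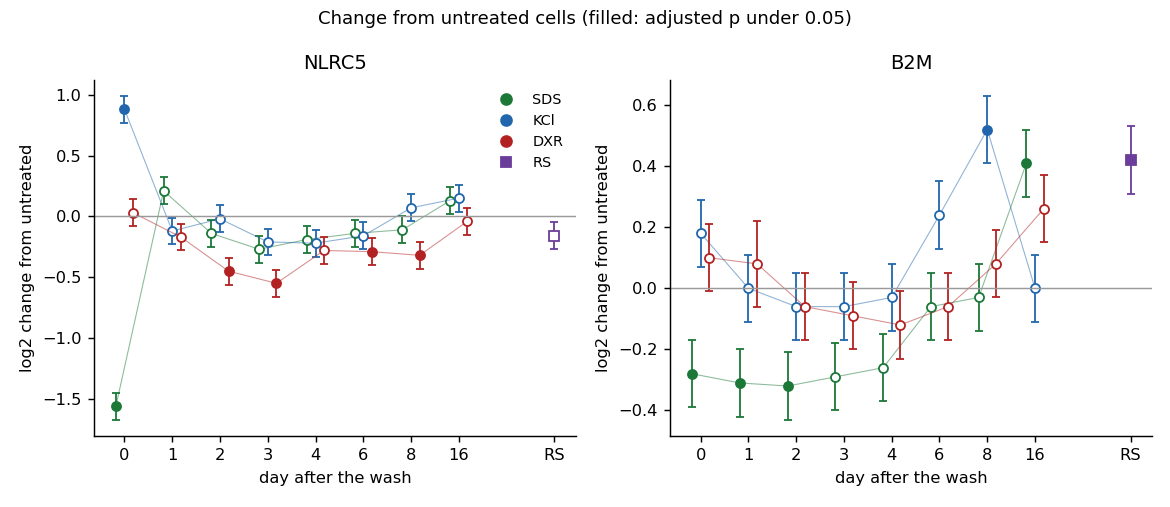
Log2 difference from untreated cells (vertical axes) of NLRC5 (left) and B2M (right) by day after the wash (horizontal axis, evenly spaced) for SDS, KCl and DXR, with RS at the right end; bars are standard errors from limma (0.11 for most points) and filled symbols are adjusted p under 0.05. The left panel shows the opposite day 0 values of SDS (-1.56) and KCl (0.88), and the right panel the negative early SDS days and the raised KCl day 8, SDS day 16 and RS.

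The inducers were then compared with each other on the same day, which uses no untreated library in the difference. Between SDS and DXR, 2 members were called on day 0, 2 on day 1, 1 on day 2 and 0 later, beside 60.4%, 35.9% and 25.4% of all tested genes on days 0, 1 and 2. On days 3, 4, 6, 8 and 16 the share of all genes was 8.14%, 0.850%, 1.37%, 1.91% and 5.59%. Between SDS and KCl, 2 members were called on day 0, 2 on day 1, 1 on day 8 and 1 on day 16, with 67.2%, 21.1%, 21.8% and 26% of all tested genes. On days 2, 3, 4 and 6 no member was called, and the share of all genes was 12.6%, 0.191%, 0.0637% and 0.184%. Between KCl and DXR, 1 member was called on day 0, 1 on day 2 and 2 on day 8, with 64.6%, 11.4% and 24.6% of all tested genes. On days 1, 3, 4, 6 and 16 no member was called, and the share of all genes was 25.1%, 5.35%, 3.04%, 5.37% and 30.9%.

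On day 0 NLRC5 differed between every pair of inducers. SDS was below KCl by a log2 difference of -2.45 (5.45-fold lower, adjusted p = 5.51e-18) and below DXR by -1.59 (3.01-fold lower, adjusted p = 2.33e-13), and KCl was above DXR by 0.86 (1.81-fold, adjusted p = 8.57e-08), each with SE 0.11 from limma. B2M on day 0 was lower after SDS than after KCl (-0.47, adjusted p = 5.03e-04, limma) and than after DXR (-0.38, adjusted p = 0.0043, limma), with libraries at 2552 and 2541 against 3706 and 3343 and 3241 and 3379. KCl and DXR differed in B2M by 0.09 (SE 0.11, adjusted p = 0.50, limma). These 5 day 0 calls held under the 13 alternatives of scaling, pseudocount, filter, model and libraries, but both B2M differences fall short where a log2 difference of at least 0.5 is required.

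By day 16, B2M was higher after SDS than after KCl (0.41, SE 0.11, adjusted p = 0.0064, limma), a call that was lost without the smaller SDS library (0.37). B2M after SDS and DXR differed by 0.15 (SE 0.11) and after KCl and DXR by -0.26 (SE 0.11), and neither was called (adjusted p = 0.47 and 0.075, limma). The latter was called with scaling to library totals (-0.31) and with only the 2 groups compared in the fit (-0.26). NLRC5 on day 16 differed by at most 0.19 (KCl minus DXR, SE 0.11) between inducers and was not called. HLA-B and HLA-C were called in 0 of the 24 comparisons between inducers, with 2 and 0 at an unadjusted p under 0.05 and 0 called with voom weights. HLA-B was testable only through the single high libraries given above, so its tests say nothing of the other groups. With only the 2 groups compared in the fit, HLA-C was followed on days 0 and 16. It was called for SDS minus DXR on day 0 (0.76) and KCl minus DXR on day 16 (-0.83).

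The other genes of the route were taken from lists of proteasome, loading, regulator, interferon and class I related genes. From each list up to 3 genes called one way most often are named, so their tallies are high by that choice. The share of all genes called as often was not determined, and all comparisons with untreated cells share its 2 libraries. Of 5 immunoproteasome genes, which shape peptides for class I, 3 were tested. PSMB8 and PSMB9, which lie in the same part of chromosome 6, had at most 1 read per library. PSMB10, the subunit encoded elsewhere, fell from 133 to 84.2 normalized counts on SDS day 0 and to 81.5 on KCl day 0 (adjusted p = 0.0029 and 0.0015, limma) and rose to 212 on SDS day 16 and 209 in RS (adjusted p = 0.0029 and 0.0027, limma). Over the 25 comparisons it was higher in 3 and lower in 3. PSME2, a proteasome activator subunit, fell from 887 to 569 on SDS day 0 and to 545 on KCl day 0. PSME1, its partner, was called in 0 of 25 comparisons.

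Of 7 peptide trimming and loading genes, 6 were tested. On SDS day 0, 1 was higher and 2 were lower, while 59.2% of all tested genes were called. The median log2 difference was -0.14 beside 0 for all tested genes. PDIA3, the thiol oxidoreductase of the loading complex, rose from 7800 to 11760 normalized counts on SDS day 0 and fell to 5687 on KCl day 0, and over the 25 comparisons it was higher in 1 and lower in 12. ERAP1, which trims peptides in the endoplasmic reticulum, was lower in 11 comparisons and higher in 1, none of them on day 0 or 16 or in RS. TAPBPL, the tapasin-related editor of class I peptides, fell from 154 to 103 on SDS day 0 and rose to 232 on DXR day 0, 249 on SDS day 16, 247 on DXR day 16 and 257 in RS. It was higher in 5 comparisons and lower in 3.

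All 13 transcription regulators were tested. On KCl day 0, 7 were higher and 1 lower, with a median log2 difference of 0.40 beside -0.04 for all tested genes, of which 62.3% were called that day. On SDS day 0, 3 were higher and 3 lower (median -0.06), and in RS 2 were higher and 7 lower (median -0.31 beside 0.01). Of all tested genes 59.2% were called on SDS day 0 and 50.8% in RS. ATF1, a CREB family factor, rose from 453 to 771 normalized counts on KCl day 0 and was lower in 19 of 25 comparisons, at 258 on SDS day 16. NFYB, a subunit of the Y box factor, fell from 463 to 288 on SDS day 0 and rose to 609 on KCl day 0. NFKB1, the p50 subunit of NF-κB, was lower in 14 comparisons and higher in 0, at 508 in RS against 775.

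Among 14 interferon signalling genes, 11 were tested, and IFNB1 and IFNG, the interferons themselves, had at most 3 and 2 reads in a library. On SDS day 0, 3 were higher and 4 lower, and on KCl day 0, 2 were higher and 5 lower. The medians were -0.20 and -0.37, beside 0 and -0.04 for all tested genes. Of all tested genes 59.2% and 62.3% were called on these days, so the counts are not a result about the list. IFNGR1, a chain of the receptor for interferon-γ, rose from 450 to 941 normalized counts on SDS day 0 (adjusted p = 5.60e-12, limma) and was higher in 11 of 25 comparisons and lower in 0. IFNAR1, of the type I interferon receptor, was higher in 20 and lower in 1, at 1885 in RS against 1280. SOCS3, an inhibitor of cytokine signalling, fell from 845 to 229 on SDS day 0 and was lower in 12.

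Of 9 class I related genes and natural killer cell ligands, 7 were tested. On SDS day 16, 4 were higher and 1 lower (median log2 difference 0.56 beside 0 for all tested genes), and in RS 3 were higher and 2 lower (0.64 beside 0.01). On SDS day 0, 2 were higher and 2 lower (0.02 beside 0), and on KCl day 0, 3 were higher and 2 lower (-0.13 beside -0.04). Of all tested genes 47.1% were called on SDS day 16, 50.8% in RS, 59.2% on SDS day 0 and 62.3% on KCl day 0. With 7 genes tested, these counts are not a result about the list. MR1, which presents metabolites to innate-like T cells, fell from 380 to 167 normalized counts on SDS day 0 and rose to 790 in RS, and was higher in 21 of 25 comparisons. FCGRT, the Fc receptor heavy chain that also pairs with B2M, was higher in 18, at 1700 on SDS day 16 against 911. ULBP1, a ligand of the NKG2D receptor, was higher in 16 and lower in 0, at 396 on DXR day 0 against 103 in untreated cells. These 3 genes lie outside the class I interval. MICA, among the genes counted as higher on SDS day 0, SDS day 16 and KCl day 0, lies within it. It had 15 to 772 reads per library, and its calls carry the limit of that interval. Of 9 class II genes only CD74, the invariant chain, was tested, with 5.02 normalized counts on SDS day 0 against 11.8 (lower, adjusted p = 0.016, limma), and the other 8 had 11 reads at most in a library.

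The genes whose group means followed each well-counted member most closely were named by Pearson correlation of log2 levels over the 26 groups, as a description. For NLRC5 these were TRIM21 (r = 0.89), HSPA2 (0.89), SH3BP4 (0.88), GLUL (0.88) and OLFML2B (0.88). TRIM21, a cytosolic antibody receptor, stood at 363 normalized counts in untreated cells, 172 on SDS day 0 and 649 on KCl day 0. For B2M they were C1S (0.94), TAPBPL (0.93), IFITM1 (0.89), TEK (0.87) and ITGA8 (0.87). C1S, a complement protease, stood at 4992 in untreated cells and 2983 on SDS day 0. These profiles were added after the values were seen. With the mean profile of all 9 members, genes among the highest were SSBP3-AS1 (0.75), MTERF2 (0.74), SLC38A4 (0.73) and MAP3K1 (0.73), a profile to which the sparsely counted chromosome 6 genes contribute 7 of 9 parts. The groups share the untreated scale and their libraries, so the correlations are not independent evidence.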

How the data were processed

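WI-38 mRNA was sequenced by the authors from 2 independent samples a group. The submitters' processing notes name Trim Galore, HISAT2, HTSeq, featureCounts, DESeq2 and the builds GRCh38 and hg38, with no role, order or version, and whether strand was used is not given in the sources used here. The authors deposited, for each of 25 comparisons with untreated cells, a mean normalized count per gene over the 4 libraries compared, a signal that is never negative. Of the 52 files, 27 are copies. The tables also hold the authors' own log2 fold changes, standard errors, test statistics, p-values and adjusted p-values, which were not used. Other columns of per-sample values numbered 0.

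Each deposited mean is a sum of 4 whole read counts, each multiplied by 1 step per library, so the reads of each library were recovered from its digits (Python 3.11.15). The untreated pair is the pair common to the 10 tables with 15 digits, or for 2 genes to all but 1 of them. The other 15 tables took this pair as given. Both counts were unique for 99.4% of gene and table pairs, and for the rest only the group mean was used. For 62 genes with means over 30000, which hold 17.6 to 19.6% of the summed means, no counts were recovered, so the depths given exclude them. On simulated tables of 29673 genes, 0 of 737240 unique pairs were wrong.

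Counts were divided by the authors' size factors, put on 1 scale by the untreated libraries. Differences were tested two-sided with limma 3.58.1 (R 4.3.3, trend) on log2(value + 1) over all 52 libraries with 26 group means (26 residual degrees of freedom), with Benjamini-Hochberg adjustment over 14124 genes. On data simulated for SDS day 0 against untreated cells (14124 genes), 80% of 1.5-fold and 99% of 3-fold changes were recovered. Of the calls, 16.7% were of unchanged genes, more than the 0.05 aimed for. The simulation gave every gene 1 dispersion (0.00297) and changed 100 genes by each fold, whereas 59.2% of genes were called in the data. These rates do not carry over to HLA-C and HLA-B, with SEs of 0.58 and 1.32. P-values rest on the spread between the 2 libraries of a group, pooled over the 26 groups and moderated across genes. They do not measure the spread of the compared groups alone, and all libraries are of 1 cell line.

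All 9 members are named. Of each gene list, up to 3 genes called one way most often are named, with the 5 genes most correlated with the members, of which 1 is not reported here. Members and lists were chosen with earlier results of these data known.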

Additional observations from a re-analysis of the deposited data

Results flagged for a closer look

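A member was called 15 times in the 24 same-day comparisons between inducers, and some comparisons called both NLRC5 and B2M. Each call was by the test of the difference itself (limma, adjusted p under 0.05 over 14124 genes). Values are log2 differences with SE 0.11, or 0.14 for B2M on DXR day 1. Of all tested genes, 11.4% to 67.2% were called in the comparisons with a called member, as given above. For NLRC5 on day 0, SDS minus KCl was -2.45, SDS minus DXR was -1.59 and KCl minus DXR was 0.86. On day 1 the sign for SDS was the opposite, with SDS minus DXR at 0.38 and SDS minus KCl at 0.33. On day 2, SDS minus DXR was 0.31 and KCl minus DXR was 0.44, and on day 8 KCl minus DXR was 0.39. For B2M on day 0, SDS minus KCl was -0.47 and SDS minus DXR was -0.38. On day 1 these were -0.32 and -0.39. On day 8, SDS minus KCl was -0.55 and KCl minus DXR was 0.44, and on day 16 SDS minus KCl was 0.41.

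The 5 day 0 differences held under the 13 alternatives of scaling, pseudocount, filter, model and libraries, but those of B2M (-0.47 and -0.38) fall short where a log2 difference of at least 0.5 is required. Leaving out 1 library ended the other 10 calls. For NLRC5, SDS minus DXR on day 1 was lost without the larger SDS library (0.33), KCl minus DXR on day 2 without the larger KCl library (0.40) or the smaller DXR library (0.37), and KCl minus DXR on day 8 without the larger KCl library (0.31) or the larger DXR library (0.26). SDS minus KCl on day 1 and SDS minus DXR on day 2 were lost without any 1 of their 4 libraries (0.28 to 0.37 and 0.24 to 0.38). For B2M, SDS minus KCl on day 1 was lost without any 1 of its 4 libraries (-0.35 to -0.29) and SDS minus DXR on day 1 without either SDS library (-0.40 and -0.37). SDS minus KCl was lost without the smaller SDS library on day 8 (-0.40) and on day 16 (0.37), and KCl minus DXR on day 8 was lost without the smaller DXR library (0.41).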

How the results depend on the processing

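No called difference of a member changed sign under any alternative. The 4 calls higher than untreated became 9 with no filter on low values, 9 with only the 2 groups compared in the fit and 2 with a log2 difference of at least 0.5 required, and ranged from 4 to 6 when 1 library was left out. The 8 calls lower became 4 with no filter and 2 with the minimum of 0.5, and ranged from 3 to 4 with 1 library left out. The 15 calls between inducers became 4 with the minimum of 0.5 and ranged from 8 to 15 with 1 library left out, where the lone library is assumed to vary like the other groups. Without a filter 46213 genes are tested, and the members too low for the main test gave 6 calls of 125 against untreated cells and 1 of 120 between inducers. Of these, TAPBP gave 4 against 1 untreated read and HLA-F gave 1 on a single read. Of the 27 calls, 3 were lost with scaling to library totals, 1 with the median of ratios over all libraries, 0 with a pseudocount of 5, 9 with no filter, 2 with only the 2 groups compared, 1 with voom weights and 0 with a minimum mean of 100. Gains were followed one by one for only 68 differences, which include the 27 calls. Among these 68, calls were gained with scaling to library totals (2), the median of ratios (1) and only the 2 groups compared (6). Leaving out the larger library of the group named before the minus sign gained 1. These numbers leave out calls gained in the remaining comparisons. With only the 2 groups compared, all comparisons gave 9 calls higher and 9 lower than untreated and 21 between inducers. The causes of the losses and gains were not tested, apart from the larger number of genes adjusted over without a filter. No paired analysis was possible because the recovered libraries could not be tied to the replicate numbers of the labels. Depth and the low counts of the interval limit HLA-E, HLA-F, TAP1, TAP2 and TAPBP, which were too low for the main test.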
